A study of Mus musculus with 21 samples.

Results

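Collagens are secreted or membrane-bound proteins whose chains repeat a glycine-led triplet and wind together in groups of 3 into a stiff rod. In skin, the fibrillar collagens form the rope-like fibrils of the dermis and are made mainly by fibroblasts. Basal keratinocytes make the collagens that fasten the epidermis to the dermis: type XVII in the hemidesmosome, type IV in the sheet of the basement membrane, and type VII in the anchoring fibrils below it. Other classes decorate fibril surfaces, span the cell membrane, or form short-chain and beaded networks.

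The expression of the collagen gene family was examined in mouse epidermal keratinocytes after 6 months of p16 induction. Members were all genes of the deposited table whose symbol has the form of a collagen chain, from Col1a1 to Col28a1, and 44 of the 22050 entries met this rule. Both groups carried K5-rtTA, which places the doxycycline-dependent activator under the keratin 5 promoter of basal epidermal cells, and tet-GFP, which marks the cells where the activator works. The p16 group (K5-rtTA/tet-GFP/tet-p16) also carried an inducible human p16 gene, a cell cycle inhibitor, and the control group (K5-rtTA/tet-GFP) did not. All mice were male, of a mixed FVB, C57Bl and 129sv background, and received doxycycline from 3 weeks of age for 6 months. Each group had 4 samples, and each sample held about 80000 GFP+ cells of dorsal skin pooled from 3 mice, after staining for CD140a, CD45 and CD31 to remove fibroblasts, immune cells and endothelial cells. GFP reports the activator and not p16 itself, so a sorted p16 sample can hold cells with little p16. The 13 other samples of the series were not analysed here.

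The 8 libraries held between 1760953 and 3414362 reads on genes, and 1 read was worth a normalized value between 0.742 and 1.53. The human CDKN2A transgene had 1, 1, 3 and 1 reads in control replicates 1 to 4 and 2, 13, 18 and 9 reads in p16 replicates 1 to 4. The sample called p16 replicate 1 is therefore named by its label only, since its transgene reads lay within the control range. Replicate 3 of both groups carries a different wording of the library protocol in the labels. There the labels name Illumina's RNA sequencing protocol, where those of the other replicates name CEL-Seq. Whether the method itself differed is not known from the sources used here. The library of p16 replicate 4 stood apart from the other p16 libraries, with a chi-square per gene of 6.75 to 8.96 against 3.05 to 3.31 among the other three. The samples came from 3 independent experiments by the study's methods, but which sample belonged to which is not given in the sources used here, so no comparison within an experiment could be made.

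Collagen reads made up 0.215% to 0.259% of gene reads in control libraries and 0.246% to 0.321% in p16 libraries, ranges that overlapped. Of these collagen reads, uncorrected for transcript length, Col17a1 alone took 62.7% to 70.5% in control and 63.5% to 64.9% in p16 libraries. The family profile was thus led by the hemidesmosome collagen in every library of both groups. Of the 44 genes, 9 had no read in any library and another 9 were under the mean value of 1 that was required for a test. The remaining 26 were tested, of which 24 reached that mean in both groups, Col2a1 in p16 samples only and Col3a1 in control samples only. The genes without a read were Col9a1, Col19a1, Col24a1, Col10a1, Col13a1, Col25a1, Col26a1, Col28a1 and Col6a5, and the untested genes with reads were Col9a2, Col22a1, Col4a3, Col6a4, Col6a6, Col11a1, Col11a2, Col5a3 and Col15a1. Of these 18 untested genes only Col5a3 exceeded 3 reads in a library, with 4 in control replicate 1.

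Calls are adjusted p under 0.05 in limma, fitted on log2(value + 1) to the 12782 genes whose mean value reached 1. By this rule 3.86% of all genes tested were called, 1.24% as higher and 2.61% as lower in p16 cells. Of the 26 tested collagen genes 5 were called (19.2%), all of which reached the required mean in both groups. Col23a1 and Col7a1 rose, and Col8a2, Col6a2 and Col4a4 fell. Each belonged to a different class, and all 5 calls held without p16 replicate 4 and with both libraries numbered 3 left out. The median log2 fold change was 0.10 over the 26 collagen genes and -0.0027 over all genes, with 14 collagen estimates above and 12 below 0. At an unadjusted p under 0.05, which 15.9% of all genes passed (7.02% higher and 8.93% lower), 5 collagen genes were higher and 5 lower. Count tests on the recovered reads gave 2 collagen genes higher and 3 lower in edgeR, which called 4.29% of all genes, and 3 higher and 3 lower in DESeq2, which called 4.27%. Both tested fewer collagen genes than the 26 of limma, so these counts are not shares of 26. Of the fibrillar genes, for example, edgeR tested 1 and DESeq2 tested 6, against 7 in limma. The values of the groups did not overlap for 6 collagen genes (23.1%), the called genes and Col1a2, compared with 9.83% of all genes. For each of these 6, an exact two-sided permutation test gave the smallest p that 4 samples against 4 allow (p = 0.0286). Values that do not overlap fix this p in advance, so it adds nothing to the absence of overlap. In bulk samples, fewer cells of a type and less RNA per cell cannot be told apart, which applies to every difference given here.

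**Figure D1:**
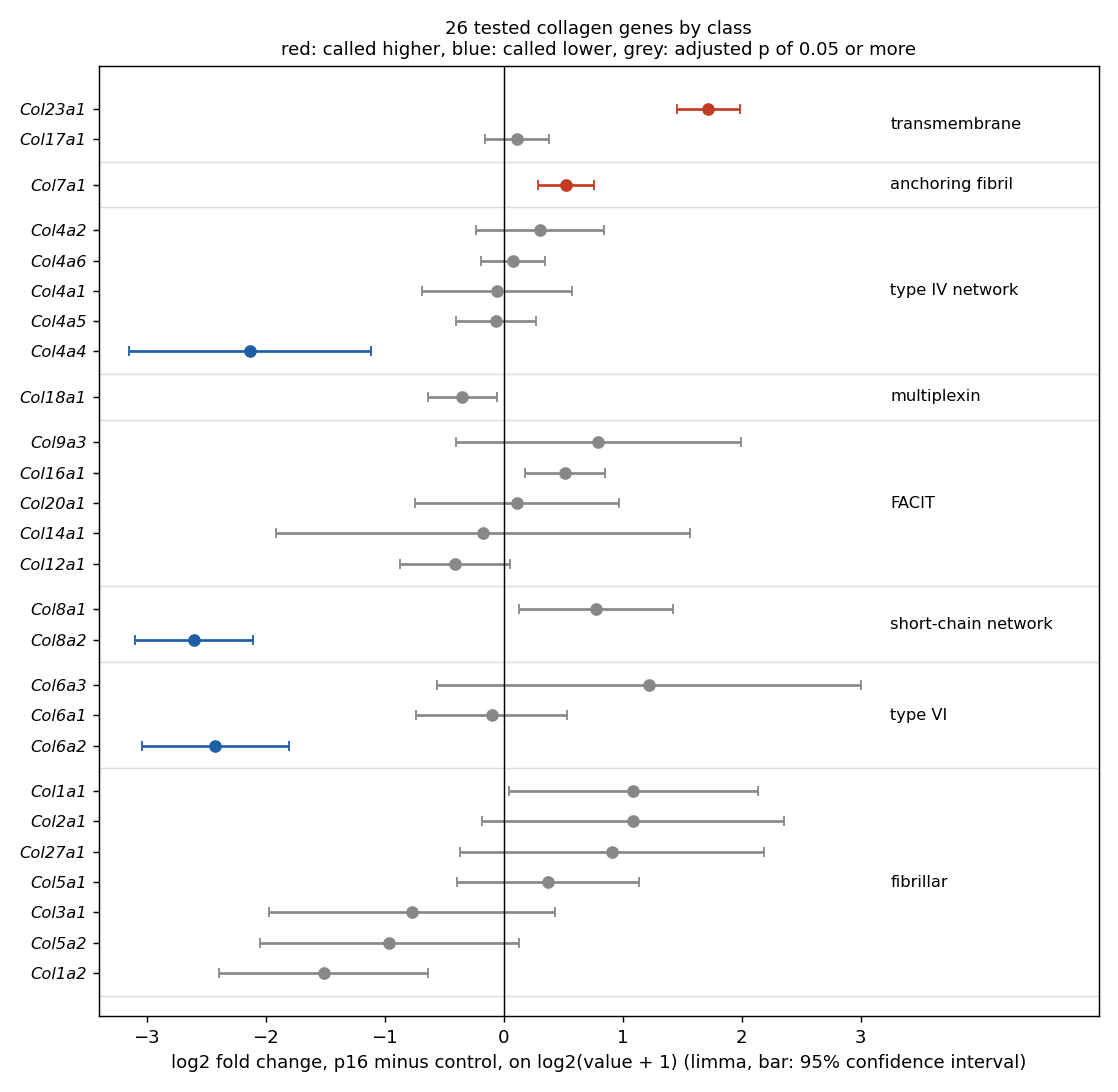
Log2 fold change, p16 minus control, on the log2(value + 1) scale for the 26 tested collagen genes grouped by class, with 95% confidence intervals from limma. Col23a1 and Col7a1 (red) lie above 0, Col8a2, Col6a2 and Col4a4 (blue) lie below 0, and the 21 genes in grey had an adjusted p of 0.05 or more.

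Among the transmembrane collagens, which are anchored in the cell membrane and can be shed from it, Col23a1 rose and Col17a1 did not pass the test. Col23a1 encodes type XXIII collagen, a membrane collagen found in epithelia including skin, and lies on the plus strand at chr11:51289920-51583918 (GRCm38). It gave normalized values of 119.4, 165.6, 147.8 and 183.3 in the control libraries (replicates 1 to 4) against 546.9, 485.6, 498.3 and 488.4 in the p16 libraries. All p16 values were above all control values, and the p16 samples lay close together. The control mean of 154 ± 27.3 compared with 504.8 ± 28.6 in p16 cells (SD, n = 4 each), 3.28-fold higher. Its log2 fold change of 1.72 had an SE of 0.12 and an adjusted p in limma of 3.93e-06, which was rank 4 of all 12782 genes by p. It was called in all 17 other fits, with an adjusted p of at most 0.000444.

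Col17a1 (chr19:47646344-47692094, minus strand), the collagen of the hemidesmosome, was the most read collagen gene. Its normalized values were 3418, 4778, 4202 and 4550 in the control libraries (replicates 1 to 4) against 4528, 3904, 4503 and 5412 in the p16 libraries. The groups overlapped over most of their range. On the log2 scale the estimate was 0.12, with a 95% confidence interval of -0.15 to 0.38 (limma adjusted p = 0.732). The transmembrane members therefore gave different results in the same sorted samples, although the difference between these genes was not tested. Col13a1 and Col25a1, the other transmembrane collagens, had no read in any library. A zero in a library allows a value of up to that of 3 reads, between 2.23 and 4.58.

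Col7a1 (chr9:108953586-108984875, plus strand) encodes type VII collagen, the main part of the anchoring fibrils that tie the basement membrane to the dermis. Its normalized values were 203.3, 204.1, 203.8 and 229.2 in the control libraries (replicates 1 to 4) against 298.2, 301.4, 259.8 and 356 in the p16 libraries. Every p16 value exceeded every control value, with a smaller separation than for Col23a1. The control mean of 210.1 ± 12.7 compared with 303.9 ± 39.6 in p16 cells (SD, n = 4 each), 1.45-fold higher. On the log2 scale the estimate was 0.52 (SE 0.11), and the limma adjusted p was 0.0158. The call was lost without control replicate 1 (limma adjusted p = 0.0547) and without the library labelled p16 replicate 1 (limma adjusted p = 0.0512).

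The type IV genes encode the network that forms the scaffold of basement membranes, and of the 5 that were tested 1 fell and 4 did not pass. Type IV chains are encoded in pairs that lie head to head on opposite strands. The annotated starts are 21 bases apart for Col4a1 and Col4a2, 72 for Col4a3 and Col4a4, and 1309 for Col4a5 and Col4a6. Col4a4 (chr1:82448423-82586849, minus strand) is a chain of the alpha3-alpha4-alpha5 network, best known from the kidney filter. It gave normalized values of 20, 19.3, 8.4 and 22.9 in the control libraries (replicates 1 to 4) against 5.6, 7, 0.9 and 1.6 in the p16 libraries. The groups did not overlap, but the p16 values came from 7, 9, 1 and 2 reads. The control mean of 17.65 ± 6.36 compared with 3.775 ± 2.98 in p16 cells (SD, n = 4 each), 4.68-fold lower. On the log2 scale the estimate was -2.13 (SE 0.47), and the limma adjusted p was 0.0212. The limma adjusted p was 0.0741, 0.0573 and 0.0666 without control replicates 1, 2 and 4, and 0.0538 without p16 replicate 3, so the call rested on single libraries.

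Col4a3, the head-to-head partner of Col4a4, had 0.7, 1.3, 1.7 and 0 in control replicates 1 to 4 and was at 0 in all p16 libraries. Both groups were within 3 reads per library, so no fold is given for it. The region between the starts of these genes is shown because it is the stretch they share. It is printed on the strand of Col4a4 (chr1:82586800-82587099, GRCm38.p6, minus strand), from 250 bases before the RefSeq start to the first 50 bases of the gene, with the 71 bases between both annotated starts in capitals:
Col4a4: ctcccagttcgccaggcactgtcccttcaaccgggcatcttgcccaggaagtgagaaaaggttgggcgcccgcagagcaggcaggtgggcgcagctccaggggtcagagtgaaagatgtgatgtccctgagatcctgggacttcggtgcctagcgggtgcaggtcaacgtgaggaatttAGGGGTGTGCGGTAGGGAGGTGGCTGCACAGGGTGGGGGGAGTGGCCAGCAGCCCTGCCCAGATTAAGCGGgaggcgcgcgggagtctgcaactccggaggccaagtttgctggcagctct
No match to any of the 6 motifs named below was found in this window.

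Col4a1 and Col4a2 encode the chains of the common alpha1-alpha2 network and did not pass. Col4a1 gave normalized values of 40.8, 39.8, 56 and 99.3 in the control libraries (replicates 1 to 4) against 59.2, 67.1, 63.8 and 30.4 in the p16 libraries. Col4a2 had 109, 79.6, 76.8 and 180.3 in the control libraries (replicates 1 to 4) against 151.9, 141.3, 156.1 and 84.7 in the p16 libraries. In both genes control replicate 4 was the highest control sample and p16 replicate 4 the lowest p16 sample, and the groups overlapped. The log2 fold changes were -0.06 (95% confidence interval -0.69 to 0.57) for Col4a1 and 0.31 (-0.23 to 0.84) for Col4a2, with limma adjusted p of 0.96 and 0.625. The estimate for Col4a1 changed sign to 0.23 without control replicate 4 and to 0.20 without p16 replicate 4. Col4a5 and Col4a6 had log2 fold changes of -0.06 and 0.08, with limma adjusted p of 0.904 and 0.832.

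Multiplexin and fibril-associated collagens gave no call in limma, with 1 gene higher (Col16a1) and 1 lower (Col18a1) at an unadjusted p under 0.05. Col18a1, the basement membrane zone collagen from which endostatin is cut, gave normalized values of 272.3, 282.3, 338.3 and 421.7 in the control libraries (replicates 1 to 4) against 239.9, 250.6, 234.1 and 296.8 in the p16 libraries. Of the p16 samples 3 lay below all controls, and the fourth lay within their range. The log2 fold change was -0.35 with a 95% confidence interval of -0.64 to -0.05 (limma adjusted p = 0.214).

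Col16a1 (chr4:130047840-130099283, plus strand), a fibril-associated (FACIT) collagen made by keratinocytes as well as fibroblasts, had the second highest mean of the family in both groups. Its normalized values were 482.2, 486.4, 467.7 and 464.5 in the control libraries (replicates 1 to 4) against 734, 466.9, 666.8 and 934.9 in the p16 libraries. The control samples were nearly equal, while p16 replicate 2 lay among them and the other p16 samples lay above. The mean was 475.2 ± 10.7 in control and 700.7 ± 193 in p16 cells (SD, n = 4 each), and the estimate on the log2 scale was 0.52 (SE 0.16), which did not pass (limma adjusted p = 0.0941). It passed without p16 replicate 2 (limma adjusted p = 0.00404), in DESeq2 (adjusted p = 0.0269) and in edgeR without a filter (adjusted p = 0.0235). Of the other FACIT genes tested, Col12a1, which binds type I fibrils, had a log2 estimate of -0.41 (limma adjusted p = 0.39), and Col9a3, Col14a1 and Col20a1, with at most 26 in any library, had 0.80, -0.17 and 0.11. The median over the 5 FACIT genes tested was 0.11.

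**Figure D2:**
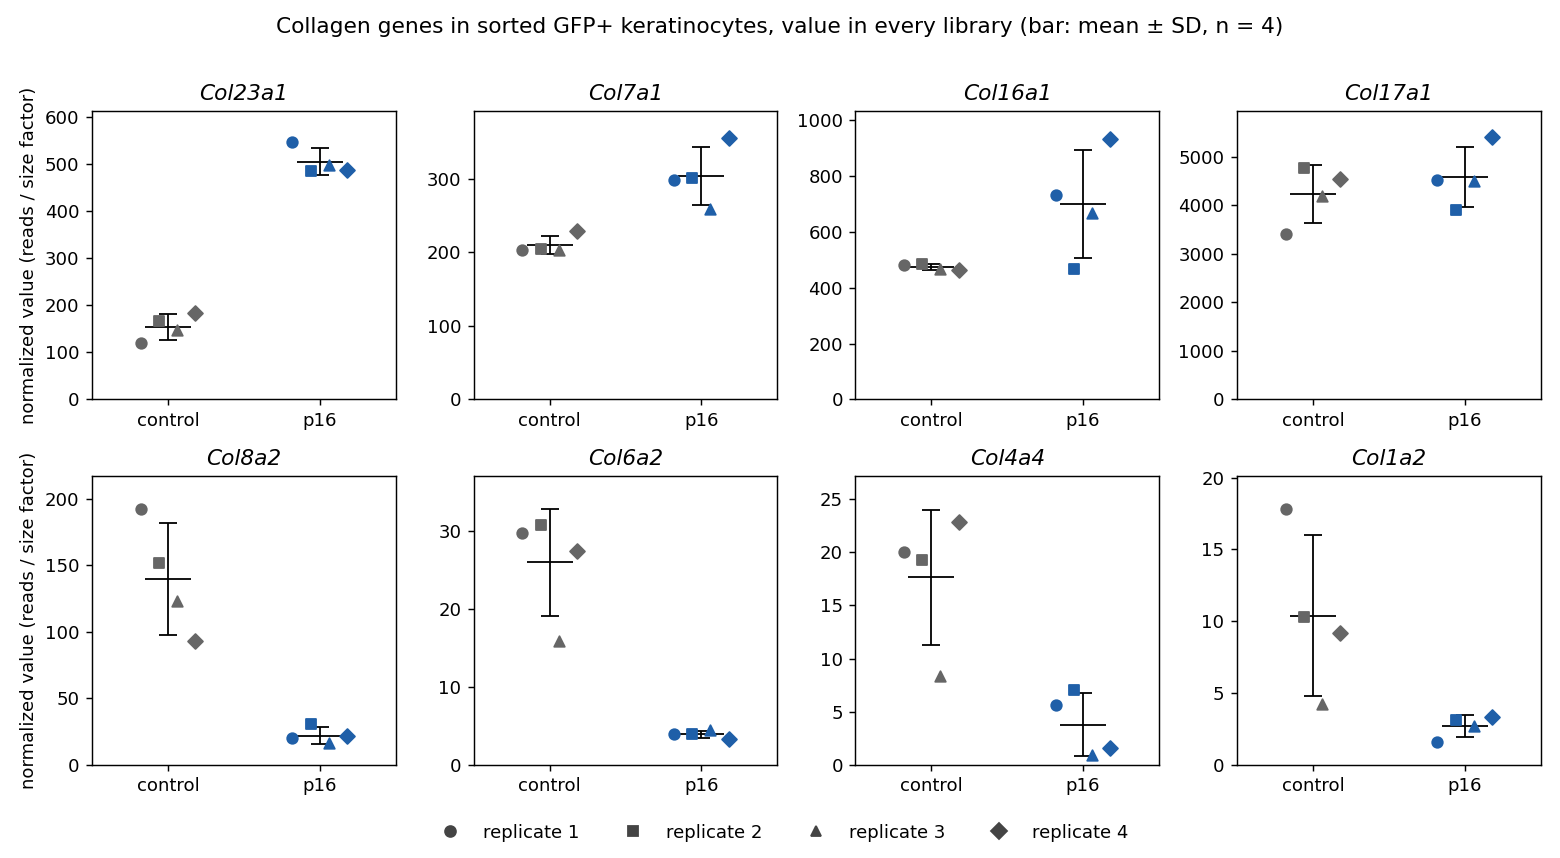
Normalized value (reads divided by the library's size factor) of 8 collagen genes in each of the 4 control and 4 p16 libraries, with bars for the mean and SD and a symbol for each replicate number. Col23a1 and Col7a1 were higher and Col8a2, Col6a2, Col4a4 and Col1a2 were lower in every p16 library than in every control library, while Col16a1 and Col17a1 overlapped.

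The short-chain collagens of type VIII form a hexagonal network in several basement membranes, and of their chains Col8a2 fell while Col8a1 did not pass. Col8a2 (chr4:126286793-126314330, plus strand) gave normalized values of 192.1, 151.4, 122.8 and 93.2 in the control libraries (replicates 1 to 4) against 20, 30.4, 16 and 21.4 in the p16 libraries. The lowest control sample was well above the highest p16 sample. The control mean of 139.9 ± 42.2 compared with 21.95 ± 6.08 in p16 cells (SD, n = 4 each), 6.37-fold lower. On the log2 scale the estimate was -2.60 (SE 0.23), and the limma adjusted p was 2.48e-05. It ranked 9 of all genes by p and was called in all 17 other fits, with an adjusted p of at most 0.000748. Col8a1 had 35.6, 51.3, 16.7 and 32.1 in the control libraries (replicates 1 to 4) against 70.4, 63.2, 59.4 and 33.7 in the p16 libraries. Its groups overlapped, and its log2 fold change of 0.77 had a 95% confidence interval of 0.13 to 1.42 and did not pass (limma adjusted p = 0.209).

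The ratio of Col8a2 to Col8a1 within each library was 2.90 to 7.35 in control and 0.269 to 0.635 in p16 cells. More Col8a2 than Col8a1 reads were thus found in every control library and fewer in every p16 library. The short-chain sum was 125.3 to 227.7 in control and 55.1 to 93.6 in p16 libraries.

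The promoters of Col23a1 and Col8a2 are shown because these genes had the highest ranks by p among the collagens that rose and fell. Each holds 250 bases before the RefSeq start and the first 50 bases of the gene on the plus strand, at chr11:51289670-51289969 for Col23a1 and chr4:126286544-126286843 for Col8a2 (GRCm38.p6). Capitals mark matches to the GC box GGGCGG on either strand:
Col23a1: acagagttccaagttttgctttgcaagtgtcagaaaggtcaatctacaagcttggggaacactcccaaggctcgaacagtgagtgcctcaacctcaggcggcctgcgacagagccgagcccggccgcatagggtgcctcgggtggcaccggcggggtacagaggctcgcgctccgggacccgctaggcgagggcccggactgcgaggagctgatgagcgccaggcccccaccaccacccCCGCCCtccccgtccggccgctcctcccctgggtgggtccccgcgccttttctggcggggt
Col8a2: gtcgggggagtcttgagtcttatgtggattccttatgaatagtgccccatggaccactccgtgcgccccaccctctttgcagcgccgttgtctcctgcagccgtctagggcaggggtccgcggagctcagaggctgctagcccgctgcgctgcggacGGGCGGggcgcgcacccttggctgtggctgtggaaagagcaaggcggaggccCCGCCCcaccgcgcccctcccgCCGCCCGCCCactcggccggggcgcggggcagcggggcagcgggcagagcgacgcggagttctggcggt
The match of Col23a1 lies 11 to 6 bases before its start, and Col8a2 has 4 matches, of which the last 2 overlap each other. The 6 motifs were searched on both strands in all 32851 RefSeq promoters of 300 bases and in the 38 promoters of the 35 collagen genes that matched by symbol. The GC box GGGCGG was found in 60.5% of collagen promoters and 35.7% of all promoters. Its letters are all G or C, so matches depend on base content. The median promoter held 52.7% G and C, against 56.7% (Col6a2) to 71.7% (Col8a2) in the promoters of the called genes. The part of base content in the GC box shares was not tested. The TATA box TATAAA was in 13.2% and 13.6%, the AP-1 site TGANTCA in 2.63% and 7.81%, and the TCF/LEF site CTTTGAT in 2.63% and 3.73%. The E2F site TTTNGCGC and the SMAD site GTCTAGAC were in none of the 38 collagen promoters, against 1.38% and 0.213% of all promoters. Beside Col8a2 and Col23a1, the GC box was the only one of these motifs in the promoters of Col6a2 and Col7a1. These matches are letters in a window and say nothing of whether a factor bound there. No promoter entry was matched for Col12a1, Col14a1, Col1a1, Col22a1, Col26a1, Col2a1, Col4a3, Col5a2 and Col9a3.

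Type VI collagen forms beaded filaments around cells and is assembled from 3 different chains, of which the alpha2 chain fell while the others did not pass. Col6a2 (chr10:76595762-76623630, minus strand) gave normalized values of 29.7, 30.8, 15.9 and 27.5 in the control libraries (replicates 1 to 4) against 4, 3.9, 4.4 and 3.3 in the p16 libraries. The p16 values came from 5, 5, 5 and 4 reads and were nearly equal, and all lay below the control samples. The control mean of 25.98 ± 6.86 compared with 3.9 ± 0.455 in p16 cells (SD, n = 4 each), 6.66-fold lower. On the log2 scale the estimate was -2.42 (SE 0.29), and the limma adjusted p was 0.000294. It was called in all 17 other fits, with an adjusted p of at most 0.00254.

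Col6a1 gave normalized values of 98.7, 70.6, 91 and 137.5 in the control libraries (replicates 1 to 4) against 80.8, 63.2, 66.5 and 193.2 in the p16 libraries. The p16 samples spanned the control range, with replicate 4 far above the others, and the log2 fold change was -0.10 (95% confidence interval -0.73 to 0.53, limma adjusted p = 0.919). Col6a3 ran from 0 to 16.8 in control and from 1.6 to 30.4 in p16 cells (limma adjusted p = 0.531). The ratio of Col6a2 to Col6a1 was 0.175 to 0.436 in control and 0.0171 to 0.0662 in p16 libraries, without overlap.

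Fibrillar collagens were read at a low level in all libraries. The sum over all 11 fibrillar genes was 15.8 to 58.1 in control and 29.6 to 55.9 in p16 libraries, and no fibrillar gene was called by limma among the 7 tested, nor by edgeR among 1 or by DESeq2 among 6. At an unadjusted p under 0.05 in limma, Col1a1 was higher and Col1a2 lower. Col1a1 and Col1a2 encode the chains of type I collagen, the main protein of the dermis. Col1a1 had 2.2, 2.6, 0.8 and 1.5 in the control libraries (replicates 1 to 4) against 6.4, 2.3, 11.5 and 2.5 in the p16 libraries. All control libraries held 3 reads of it or fewer, and it did not pass (limma adjusted p = 0.285).

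Col1a2 (chr6:4504814-4541544, plus strand) had 17.8, 10.3, 4.2 and 9.2 in the control libraries (replicates 1 to 4) against 1.6, 3.1, 2.7 and 3.3 in the p16 libraries. Its groups did not overlap, but the log2 fold change of -1.51 (SE 0.41) did not pass (limma adjusted p = 0.0571). It passed without control replicate 3 (limma adjusted p = 0.0243) and in edgeR without a filter (adjusted p = 0.0277). The ratio of Col1a2 to Col1a1 was 3.96 to 8.09 in control and 0.235 to 1.35 in p16 libraries. Thus the groups did not overlap in this ratio either, on few reads.

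Col3a1, the fibrillar chain most abundant in young dermis next to type I, had 0.7, 1.3, 0.8 and 4.6 in the control libraries (replicates 1 to 4) against 0, 1.6, 0 and 0.8 in the p16 libraries, which is 3 reads or fewer in every library. Col5a1 and Col5a2, whose type V chains sit within type I fibrils, had log2 fold changes of 0.37 and -0.96 and limma adjusted p of 0.692 and 0.388. Col5a2 passed only with both libraries numbered 3 left out (limma adjusted p = 0.0436). Col2a1 and Col27a1, known from cartilage, had at most 3.5 and 16 in any library and did not pass (limma adjusted p = 0.404 and 0.509).

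**Figure D3:**
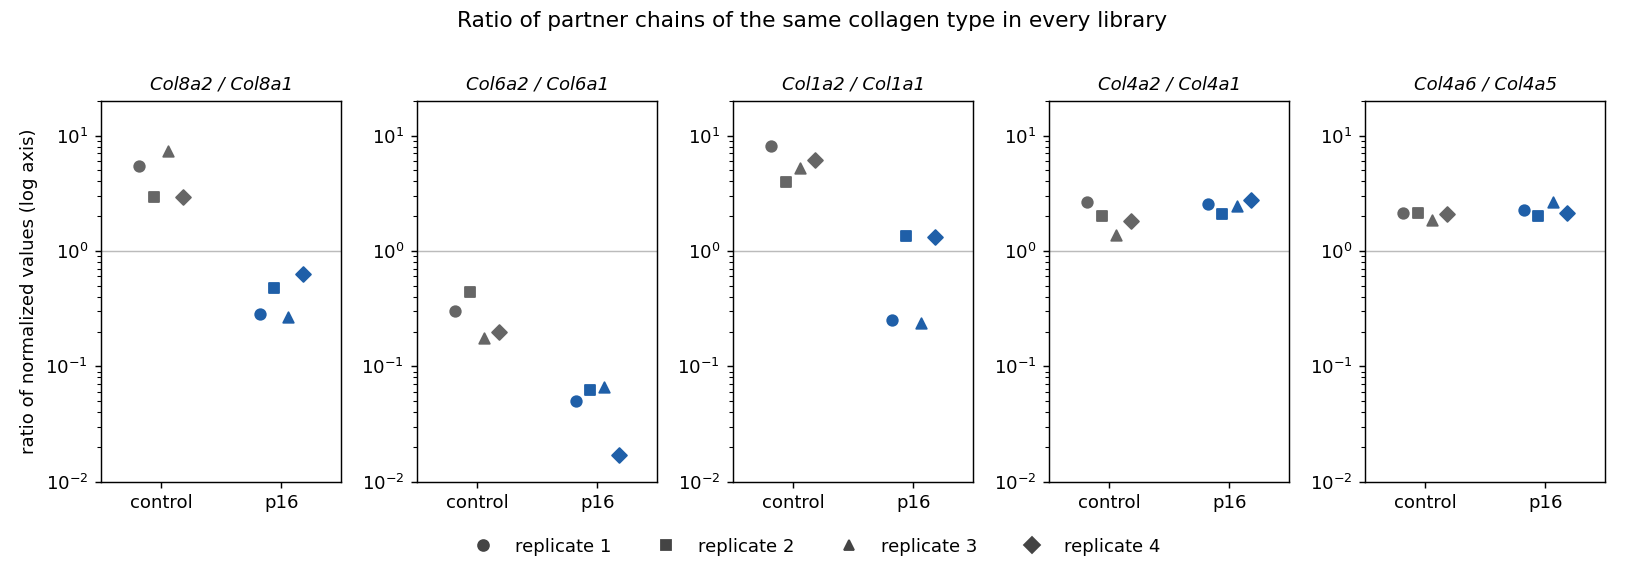
Ratio of the normalized values of partner chains within each library on a log axis, for 3 collagen types and 2 head-to-head type IV pairs, with a symbol for each replicate number. The ratios of Col8a2 to Col8a1, Col6a2 to Col6a1 and Col1a2 to Col1a1 were lower in every p16 library than in every control library, while those of Col4a2 to Col4a1 and Col4a6 to Col4a5 overlapped.

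The partner chains of type IV kept overlapping ratios. Col4a2 to Col4a1 was 1.37 to 2.67 in control and 2.11 to 2.79 in p16 libraries, and Col4a6 to Col4a5 was 1.84 to 2.14 and 2.01 to 2.68. The pairs with starts 21 and 1309 bases apart thus gave no separation of the groups, and Col4a4 to Col4a3 could not be computed because of zeros. The ratios were not tested.

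The 5 called genes differ in the build of the encoded chain. Runs of at least 6 glycine-led triplets were counted in the GENCODE M21 coding sequences. The longest run was 337 to 344 triplets in fibrillar genes other than Col24a1 and Col27a1, which had 216 and 217. It was 43 for Col23a1, 75 for Col7a1, 45 for Col4a4, 60 for Col8a2 and 87 for Col6a2. Runs covered 69.4% of the 532 codons of Col23a1, but 26.9% of the 1470 codons of Col17a1. Among all members outside the fibrillar class, called or not, the longest run was at most 113 triplets.

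For proteins that modify, export or bind collagen and for the hemidesmosome and anchoring filaments, 5 lists held 74 tested genes. Of these 3 were called (4.05%), a share near the 3.86% of all genes. At an unadjusted p under 0.05, however, 25 of the 74 passed (33.8%), against 15.9% of all genes. Of 21 tested enzymes and chaperones that fold and modify chains in the cell, none was called higher and 2 were called lower. Their median log2 fold change was 0.09, and 5 were higher and 3 lower at an unadjusted p under 0.05. Fkbp10, a prolyl isomerase that helps type I procollagen fold, had 3.7, 7.7, 6.7 and 9.2 in the control libraries (replicates 1 to 4) against 0, 0, 0 and 0.8 in the p16 libraries (limma adjusted p = 0.00314). The p16 value stands on 1 read, so no fold is given. Fkbp10 reached the mean of 1 required for a test in control samples only (mean 6.825, against 0.2 in p16). Its call thus leans on the group where it is high. P3h4, a partner of the lysyl hydroxylase complex, fell, with 89.8 ± 11.7 in control and 55.5 ± 9.44 in p16 cells (SD, n = 4 each; limma adjusted p = 0.0253). Without control replicates 1, 3 or 4 or the p16 libraries 1 or 2 its limma adjusted p rose to between 0.0543 and 0.0934. The call of P3h4 was also lost with both libraries numbered 3 left out. Serpinh1, the collagen chaperone HSP47, had means of 299.9 and 275.6 and did not pass (limma adjusted p = 0.817).

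Of 14 tested genes for procollagen export, cleavage and cross-linking, and of 9 tested collagen receptors, none was called by limma, with 2 and 2 at an unadjusted p under 0.05, which 15.9% of all genes passed. Nor was any called by DESeq2, which tested the same numbers, or by edgeR, which tested 11 and 5. DDR1, a receptor kinase for collagen encoded by Ddr1, had means of 1112 and 1120 (limma adjusted p = 0.975). Among 13 tested proteins that bind collagen in the matrix, Sparc alone was called, and the median log2 fold change was 0.37. At an unadjusted p under 0.05 in limma, 5 of these 13 were higher and 2 lower. Sparc, which binds fibrillar and type IV collagen, gave normalized values of 631.3, 571.1, 590.5 and 731.8 in the control libraries (replicates 1 to 4) against 1035, 845.6, 951.4 and 1917 in the p16 libraries. All p16 values were above the controls (log2 fold change 0.84, SE 0.20, limma adjusted p = 0.0261). The call was lost without control replicates 1, 2 or 3 or the library labelled p16 replicate 1, where the limma adjusted p was 0.0592 to 0.0763, and with both libraries numbered 3 left out (limma adjusted p = 0.0903).

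The 17 tested genes of the hemidesmosome and anchoring filament list gave no call in limma or DESeq2, nor did the 15 that edgeR tested. The list includes partners of types XVII and VII among other genes. At an unadjusted p under 0.05 in limma, which 7.02% of all genes passed as higher and 8.93% as lower, 4 were higher (Itga6, Itgb4, Plec and Lama3) and 2 lower (Lamb1 and Nid1). Itgb4, the hemidesmosome integrin chain that binds type XVII collagen, had means of 734 and 960.8 (log2 fold change 0.37, limma adjusted p = 0.104).

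Markers of other cells of the skin moved with some of these results. The 23 fibroblast markers, none of them a collagen, summed to 7043 to 8393 in control and 7205 to 10228 in p16 libraries, the highest being p16 replicate 4. Most of this sum came from Gsn, with means of 5105 and 4517, so it says little of the other markers. Of them 11 had 3 reads or fewer in every library, among them Lum and Mfap5 at 0, and Pdgfra (CD140a), used as a gate, ran from 0 to 1.3 and from 0 to 3.5. Of the 13 tested, 2 were called higher (Dcn and Sparc) and 3 lower (S100a4, Vim and Fbln1). Of all genes, 1.24% were called higher and 2.61% lower. Single markers thus changed strongly in both directions under an overlapping sum. Dcn had means of 5.85 in control and 103.65 in p16 cells, and S100a4 had 841.9 and 172.7. The 11 endothelial markers summed to 12.9 to 23 and 14 to 21.6, and Cdh5, Kdr, Emcn and Cldn5 were at 0 in all libraries. Mural and muscle markers summed to 509.6 to 682.9 and 531.3 to 628.5, and immune markers to 99.2 to 113.5 and 95 to 134.3, with Lyz2 at 0. The mural sum came mostly from Cspg4 (means 273.4 and 227.2) and Notch3 (297.8 and 326.5). Des was at 0, and Rgs5, Myh11 and Tagln had 3 reads or fewer in every library. Most of the immune sum was Cd74 (means 84.6 and 94.1). None of the 4 endothelial, 4 mural and 8 immune markers that limma tested was called, with 3 in all at an unadjusted p under 0.05. DESeq2 called none of 4, 4 and 7, and edgeR none of the 3 mural and 1 immune markers that it tested.

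The sorted cells carried basal keratinocyte markers at 32498 to 51869 in control and 32676 to 35681 in p16 libraries, so the labelled cell type was seen in both groups, and of the 9 listed Itga3 was called higher and Krt15 lower. Differentiated keratinocyte markers summed to 7834 to 11078 and 8085 to 11803, with Lor called higher and Sbsn and Ivl lower. The 13 hair follicle stem cell markers summed to 3901 to 4941 and 1883 to 3523, with 8 of 12 tested called lower and Krt24 higher, where 2.61% of all genes were called lower and 1.24% higher. Sebaceous markers summed to 1481 to 1812 and 501 to 805, with 6 of 7 tested called lower, against the same 2.61%. Melanocyte and Schwann cell markers summed to 151 to 568.2 and 58.3 to 157.8, with Dct and Tyrp1 called lower. All 9 tested had lower estimates, 7 of them at an unadjusted p under 0.05, which 8.93% of all genes passed as lower. Hair follicle and sebaceous sums did not overlap between the groups and were lower in p16 libraries, as was the case for Col8a2, Col6a2, Col4a4 and Col1a2. Col23a1 and Col7a1 did not overlap either but were higher, and 9.83% of all genes did not overlap in either direction. The part of these marker cells in the collagen results was not tested. Fewer follicle, sebaceous or melanocyte cells in the sort and less collagen RNA per cell cannot be told apart.

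**Figure D4:**
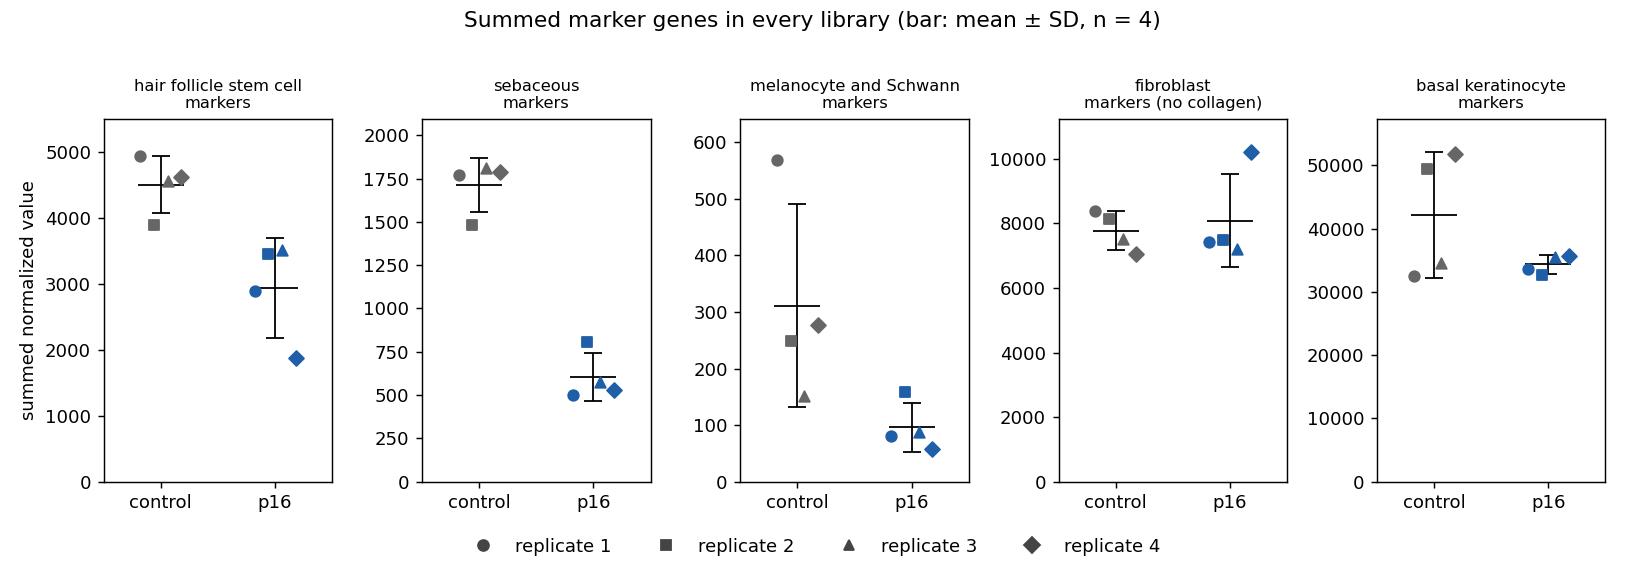
Summed normalized value of marker genes for 5 cell types in each library, with bars for the mean and SD of 4 libraries per group and a symbol for each replicate number. The hair follicle stem cell sum was 3901 to 4941 in control and 1883 to 3523 in p16 libraries and the sebaceous sum 1481 to 1812 and 501 to 805, while melanocyte, fibroblast and basal keratinocyte sums overlapped.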

How the data were processed

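By the study's methods, RNA of sorted GFP+ keratinocytes was profiled by an adapted CEL-Seq2 protocol, which reads the 3′ end of transcripts. The labels of replicate 3 in both groups name another protocol, as given above. The authors trimmed reads with Cutadapt and used TopHat2 for alignment against GRCm38, the mouse assembly. The submitters' processing notes also name HTSeq and DESeq2. Versions, strand setting and the handling of molecular identifiers are not given in the sources used here. The deposited table holds a normalized signal per gene, the reads divided by a size factor of each library and rounded to 1 decimal. Columns with the authors' group means, fold changes, statistics and p-values were not used.

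Whole reads were recovered from the steps of the low values (100% of values whole to within rounding). The 8 libraries held 1760953 to 3414362 reads. The zero limits of 3 reads cover counting error only, while the confidence intervals come from limma and include the spread between libraries of a group. Values were tested as log2(value + 1) with limma 3.58.1 (R 4.3.3, trended variance) over the 12782 genes whose mean reached 1, and p-values were adjusted by Benjamini-Hochberg to a threshold of 0.05. Single values were compared by an exact two-sided permutation test. On simulated data with 200 changed genes among 12770, limma found 69%, 88% and 100% of 2-, 3- and 4-fold changes. The changed genes were drawn only from genes with a mean well above the filter. The spread between simulated libraries was set by 1 fixed dispersion (0.05), without differences between experiments. These shares therefore do not apply to genes on few reads, such as most fibrillar collagens. Alternatives were a pseudocount of 0.1, no filter or a mean of at least 5, total count scaling, a replicate block, each library left out, both libraries numbered 3 left out, and edgeR 4.0.16 and DESeq2 1.42.0 on the recovered reads (edgeR called 4.29% and DESeq2 4.27% of genes).

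The members and the 14 gene lists were chosen with earlier results of these data known. Collagen genes described in full were those called by limma, edgeR or DESeq2, the 5 with the highest mean, and Col1a1, Col1a2, Col3a1, Col4a1, Col4a2, Col7a1, Col17a1, Col18a1 and Col23a1, with every called gene of the 5 collagen pathway lists; other genes were named after their values were seen. Gene positions and coding sequences are from GENCODE M21, and promoters from RefSeq (GRCm38.p6, 35 of 44 genes matched by symbol). Triplet runs were counted in coding sequences in place of proteins. Same-numbered samples correlated by 0.106, 0.0215, 0.0644 and 0.178 in their deviations over 10431 genes, and samples of different numbers by -0.161 to 0.131. Which samples shared an experiment is not given, so the numbers were not taken as pairs in the main fit. Whether equal numbers share an experiment was not tested.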

Additional observations from a re-analysis of the deposited data

Results flagged for a closer look

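In groups of 4 samples, single values that lay far from the other 3 were looked for in 70 groups, of which chance flags about 1 in 20. Among genes, Col7a1 in control replicate 4 was 229.2 against 203.3 to 204.1 in the others, and it was also the type VII sum of 229.2. Col6a1 in p16 replicate 4 was 193.2 against 63.2 to 80.8, and the type VI sum there was 226.9 against 74.1 to 86.4. The type IV sum in control replicate 4 was 574.4 against 409.5 to 413.1. Col5a2 in control replicate 3 was 1.7 against 11.1 to 12.8. Col3a1 in control replicate 4 was 4.6 against 0.7 to 1.3, and Col2a1 in control replicate 1 was 0.7 against 0, both on 3 reads or fewer.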

How the results depend on the processing

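Col23a1, Col8a2 and Col6a2 were called in all 17 other fits, Col7a1 in 15 and Col4a4 in 13. With 1 library left out, the calls ranged from 69 to 196 higher and 177 to 343 lower over all genes (159 and 334 with all libraries), from 1 to 3 and 2 to 4 over collagen genes (2 and 3), and from 0 to 3 and 1 to 3 over the collagen pathway lists (1 and 2). Over all genes, 69 were higher and 192 lower without the library labelled p16 replicate 1, 86 and 177 without control replicate 1, and 99 were higher without p16 replicate 3. The collagen count of 1 higher came without control replicate 1 or the library labelled p16 replicate 1. With both libraries numbered 3 left out, 66 genes were higher and 157 lower, and the pathway lists had 0 and 1. Without adjustment of p, 897 and 1141 of all genes, 5 and 5 collagens, and 17 and 8 pathway genes passed 0.05. The pathway lists had 1 lower call at a mean of at least 5 and in edgeR, and 3 higher calls in edgeR without a filter. The FACIT median of 0.11 was 0.43 with a pseudocount of 0.1, -0.031 at a mean of at least 5, 0.35 without the libraries numbered 3, and 0.017 to 0.51 with 1 library left out. The type VI median of -0.10 was -1.33 in edgeR, -1.68 in edgeR without a filter and -1.07 in DESeq2. The fibrillar median of 0.37 was -0.29 at a mean of at least 5, -0.35 without the libraries numbered 3, -0.076 in edgeR without a filter, -0.14 in DESeq2 and -0.14 to 0.71 with 1 library left out. At a mean of at least 5 the estimates of single genes were unchanged, and the medians differed because fewer genes were covered. The type VI median covered 2 genes in edgeR and 3 in the main fit, so medians under another filter do not compare the same genes. Estimates near 0 that changed sign with 1 library left out ran from -0.21 to 0.23 for Col4a1, -1.05 to 0.53 for Col14a1, -0.20 to 0.29 for Col20a1, -0.19 to 0.040 for Col4a5, -0.012 to 0.18 for Col4a6 and -0.46 to 0.068 for Col6a1. Col14a1 was also 0.43 with a pseudocount of 0.1, Col4a5 0.082 and Col6a1 0.015 without the libraries numbered 3, and Col6a1 0.026 in edgeR, 0.036 in edgeR without a filter and 0.027 in DESeq2. With the replicate number as a block, 216 genes were called higher and 392 lower. In that fit Col16a1 also passed (limma adjusted p = 0.0491), the pathway lists had 5 higher calls, and no other collagen call changed. Control replicates 1, 3 and 4 correlated best with the p16 replicate of their own number, and control replicate 2 with p16 replicate 1. The cause of the other changes was not tested. The p16 values of Col6a2 and Col4a4 and all fibrillar values rest on few reads, which limits what can be seen there.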
